A study of Mus musculus with 8 samples.

Results

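The insulin-like growth factor (IGF) axis is described here by 10 transcripts: the ligands Igf2 and Igf1, the noncoding RNA H19, the receptors Igf1r, Insr and Igf2r, and the binding proteins Igfbp2, Igfbp3, Igfbp4 and Igfbp5. They were picked by name, 10 of the 24421 genes in the deposited count tables, with their levels in CPM (counts scaled to a library total of 1000000) in all 4 groups known when they were picked. Their levels and differences are therefore a description, and the tests concern 63 other genes of the pathway in 8 lists. These lists were also chosen with earlier results of these data known, so their calls are not an independent test. All 10 passed the filter on low counts.

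The tissue was the hippocampus of C57BL/6J mice, labelled wildtype and male. Pregnant dams had been given intraperitoneal injections for 5 days from 14.5 days post coitum, either of dexamethasone, a synthetic glucocorticoid, at 1 mg/kg per day or of an equal volume of normal saline. Offspring of the dexamethasone dams form the IUGR group (intrauterine growth retardation) and offspring of the saline dams the NS group, each sampled at postnatal day 3 and at week 8, with 2 libraries in each of the 4 groups. The labels give the injection that defines the IUGR group and no body weight. They leave unsaid whether libraries stem from separate animals or litters, so that p-values measure only the spread between these libraries, which may be technical. At postnatal day 3 the replicates of each group differed in sex-linked counts, given below, so there they were not repeat libraries of 1 animal.

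IGF1 and IGF2 are small secreted proteins related to insulin. Both act through the IGF1 receptor, and IGF2 also through a form of the insulin receptor, to promote growth and survival by way of insulin receptor substrates, PI3K, AKT and mTOR, with FOXO factors held out of the nucleus. The IGF2 receptor takes IGF2 up for breakdown, and the binding proteins carry IGFs and limit or prolong their action. Igf2 and H19 are imprinted neighbours: Igf2 is expressed from the paternal copy in most fetal tissues and H19 from the maternal copy, under a shared control region that CTCF binds. In the brain, Igf2 is known to stay on in leptomeninges and choroid plexus, where both copies can be active.

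Libraries stood apart in ways the groups do not describe. Totals ran from 13030277 to 18993050 counts. At postnatal day 3 the replicate 2 libraries of both groups had 4998 and 5130 counts of Xist, the RNA of the inactive X chromosome. They had 34 and 74 counts of Y-linked genes, although labelled male. Replicate 1 had 4 and 81 counts of Xist and 3783 and 5364 of Y-linked genes. Every week 8 library had between 1 and 50 counts of Xist and between 2023 and 3936 of Y-linked genes. The comparisons between ages, and the replicate term at postnatal day 3, thus carry a difference in sex-linked counts. The part of sex in the age changes was not tested. At week 8 the replicate 2 libraries held 0 and 2 counts of Rpph1, the RNA of ribonuclease P, against 872768 to 1119905 in the other 6 libraries. Hippocampal neuron markers Prox1 and Zbtb20 were detected in all 8 libraries. The differences that turned sign without one of the libraries are counted below.

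Igf2 lay lower in IUGR than in NS at postnatal day 3, by about the same amount in both replicates. The gene is on chromosome 7 (GRCm38, the assembly also called mm10, 142650766 to 142666816, minus strand, protein coding). Igf2 read 224 and 218 CPM in the NS libraries and 113 and 111 CPM in the IUGR libraries at that age (replicates 1 and 2). The 2 groups did not overlap, and the replicates of each group were close to each other. The mean was 49.4% below NS (221 ± 3.86 against 112 ± 1.55 CPM, SD, n = 2). On the log2 scale the difference was -0.98 ± 0.57 (SE) in edgeR's fit of all libraries, where week 8 libraries enter the estimate of the spread, and -0.98 ± 0.09 in the fit of the postnatal day 3 libraries alone. In edgeR's fit of that age alone 0 of 15435 genes were called, and Igf2 had an adjusted p of 0.146. With DESeq2 on that age alone Igf2 was among 61 genes called (0.305% of those tested), and among 11 (0.055%) once the replicate number was a term. Since its values were known when it was picked, nothing is read from these calls. At the same age 20 marker genes of leptomeninges and fibroblasts summed to 1261 and 1042 CPM in the NS libraries and 448 and 530 CPM in the IUGR libraries. In bulk tissue, fewer cells of a type and less RNA per cell cannot be told apart, and the part of these cells in the Igf2 level was not tested.

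At week 8 the Igf2 levels rested on 1 library. Igf2 read 182 and 45.6 CPM in the NS libraries and 62.3 and 46.1 CPM in the IUGR libraries. Replicate 1 of NS stood far above the other 3 libraries, and the groups overlapped. The log2 difference between IUGR and NS was -0.99 ± 0.57 over all libraries and 0.31 without replicate 1 of NS. Within same-numbered libraries the log2 difference of CPM + 1 was -1.53 for replicate 1 and 0.02 for replicate 2, whereas at postnatal day 3 it was -0.98 and -0.97. From postnatal day 3 to week 8 the mean of Igf2 went from 221 to 114 CPM in NS and from 112 to 54.2 CPM in IUGR, with every week 8 library below every postnatal day 3 library of its group. The log2 change of Igf2 in NS was -0.93 over all libraries, -2.25 without replicate 1 of NS at week 8 and -0.27 without replicate 2.

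Gene-level counts do not say which Igf2 promoter was in use. RefSeq's promoter table (build GRCm38.p6, 250 bases before to 50 after each start) holds 4 Igf2 start sites, and 8 of the 10 genes are in it. The outermost Igf2 sites, 1 and 4, are shown because they differ in the motifs they hold, and Igfbp2 site 1 because Igfbp2 was high in the same week 8 library as Igf2. Capitals mark AGAACA, a hexamer of the glucocorticoid response element, and GGGCGG, the GC box, on either strand.
Igf2 start site 1, chr7:142666767-142667066, minus strand: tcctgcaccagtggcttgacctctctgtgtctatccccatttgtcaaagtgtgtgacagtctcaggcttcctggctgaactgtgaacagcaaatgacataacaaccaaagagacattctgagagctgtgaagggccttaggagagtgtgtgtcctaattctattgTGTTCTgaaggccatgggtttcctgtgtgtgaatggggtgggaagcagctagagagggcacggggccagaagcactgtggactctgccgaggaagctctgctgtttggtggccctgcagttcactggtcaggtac
Igf2 start site 4, chr7:142657447-142657746, minus strand: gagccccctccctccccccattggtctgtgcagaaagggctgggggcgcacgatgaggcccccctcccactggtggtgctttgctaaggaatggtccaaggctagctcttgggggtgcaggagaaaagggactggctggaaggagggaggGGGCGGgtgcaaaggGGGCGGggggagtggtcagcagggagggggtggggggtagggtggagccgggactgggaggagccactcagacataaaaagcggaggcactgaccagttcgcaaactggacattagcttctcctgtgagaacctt
Igfbp2 start site 1, chr1:72824230-72824529, plus strand: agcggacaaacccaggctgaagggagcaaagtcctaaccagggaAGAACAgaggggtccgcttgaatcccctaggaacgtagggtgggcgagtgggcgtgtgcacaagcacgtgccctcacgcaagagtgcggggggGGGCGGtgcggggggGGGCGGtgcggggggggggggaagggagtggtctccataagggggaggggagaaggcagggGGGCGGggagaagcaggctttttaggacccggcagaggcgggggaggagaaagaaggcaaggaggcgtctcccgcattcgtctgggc

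The hexamer AGAACA lies at position -85 of Igf2 site 1, where it reads TGTTCT, and at -206 of Igfbp2 site 1. It is in none of the other printed or unprinted windows of the 8 genes, and 18.97% of 32851 mouse promoters of this length hold it. GC boxes number 1 at Igf2 site 3, 2 at Igf2 site 4, 3 at Igfbp2 site 1, 2 at Igf1r and 3 at Igf2r, and 35.7% of all promoters hold at least 1. The letters TATAAA, the TATA box, are at Igfbp4 alone among these genes and in 13.6% of all promoters. The GC content was 52.3% at Igf2 site 1 and 63.3% at site 4, beside a median of 52.7% over all promoters. A match of letters is a description and not a bound site.

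H19 (chromosome 7, 142575529 to 142578143, minus strand, a long noncoding RNA 72.6 kb from Igf2) was abundant at postnatal day 3 and had a few counts at week 8. At postnatal day 3 H19 read 96.2 and 125 CPM in the NS libraries and 78.1 and 87.0 CPM in the IUGR libraries. Both IUGR libraries lay below both NS libraries, by 25.4% in the mean, and the spread within NS was larger than the gap between the nearest libraries of the 2 groups. At week 8 the NS libraries held 16 and 2 counts of H19 and the IUGR libraries 10 and 1, where 3 counts correspond to between 0.158 and 0.23 CPM. In summed counts per library total, H19 was 199 times higher at postnatal day 3 than at week 8 in NS (95% exact counting interval 126 to 336) and 221 times higher in IUGR (123 to 442). These intervals cover counting error only.

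The fitted log2 change of H19 with age was -7.45 ± 1.03 in NS and -7.65 ± 1.06 in IUGR, and lay between -9.99 and -6.34 over all alternatives. In edgeR's fit of all libraries H19 was called lower in both groups (Benjamini-Hochberg adjusted p under 0.05 over 15999 genes), as 6.43% of all genes were in NS and 7.48% in IUGR, and the other 9 genes were not called. The call was lost in each group when either of its postnatal day 3 libraries, or both libraries numbered 2 of that age, were left out. H19 was picked with these values known and passed the filter on low counts through its postnatal day 3 libraries, so nothing is read from the call. Between IUGR and NS at week 8, 11 against 18 counts gave a ratio of NS to IUGR of 1.50 (0.671 to 3.52), so that no difference was detectable at this depth. The 26 counts of the replicate 1 libraries against 3 of the replicate 2 libraries gave a ratio of 10.5 (3.21 to 54.0), the same split of libraries as Rpph1.

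Within each library the H19 to Igf2 ratio was taken in CPM per kilobase of the deposited gene length. At postnatal day 3 it was 0.796 and 1.06 in the NS libraries and 1.28 and 1.46 in the IUGR libraries, without overlap. At week 8 it was between 0.0028 and 0.0201. The size of this ratio depends on the gene lengths used, while its order between libraries does not.

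Both genes carry a microRNA on their own strand, Mir675 in an exon of H19 and Mir483 in an intron of Igf2. The mature sequences, from RefSeq (GRCm38.p6), are shown because they lie within Igf2 and H19. Capitals mark the seed, bases 2 to 8.
mmu-miR-675-5p: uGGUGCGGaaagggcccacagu
mmu-miR-675-3p: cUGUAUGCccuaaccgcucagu
mmu-miR-483-5p: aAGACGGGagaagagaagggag
mmu-miR-483-3p: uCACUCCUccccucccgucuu

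The 4 seeds differ from each other. The count tables list the microRNA genes at 0 counts in every library for Mir675, and at 2 and 1 counts for Mir483 in the week 8 NS libraries with 0 in the other 6. Libraries of fragmented total RNA made with random primers do not measure mature microRNAs, so the levels of these 4 molecules are not analysed here.

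Igf2os, an antisense RNA that overlaps Igf2 by 7124 bases, had a far lower level than Igf2 and matched its pattern only in part. Igf2os read 1.72 and 1.77 CPM in the NS libraries and 0.737 and 1.05 CPM in the IUGR libraries at postnatal day 3, with no overlap. At week 8 Igf2os read 1.69 and 0.421 CPM in the NS libraries (22 and 8 counts), replicate 1 of NS again the highest. It read 0.473 and 0.137 CPM in the IUGR libraries (7 and 2 counts). Between the replicate 2 libraries of that age Igf2 was level, at 45.6 CPM in NS and 46.1 CPM in IUGR. Whether counting used strand is not given in the sources used here, so reads of Igf2 and Igf2os may not be separable. In the fit of all libraries Igf2os differed by -1.65 ± 0.88 between IUGR and NS at week 8, with an adjusted p of 1.

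Igf1, the ligand that carries growth hormone signals after birth and is made locally in the brain by neurons and microglia, was the least abundant coding gene of the set. At postnatal day 3 Igf1 read 23.7 and 17.6 CPM in the NS libraries and 14.6 and 30.3 CPM in the IUGR libraries. The replicates of IUGR lay on either side of both NS libraries, so the groups overlapped, and the log2 difference of Igf1 was 0.11 over all libraries and -0.49 without replicate 2 of IUGR. At week 8 it read 13.05 and 7.79 CPM in the NS libraries and 7.98 and 6.72 CPM in the IUGR libraries, and these groups overlapped too. Between the ages the mean was 49.5% lower at week 8 in NS and 67.2% lower in IUGR, with log2 changes of -0.96 ± 0.42 and -1.50 ± 0.43 that did not pass the test. The ratio of Igf2 to Igf1 was taken in CPM per kilobase of gene length. At postnatal day 3 it was 17.4 and 22.8 in the NS libraries and 14.3 and 6.74 in the IUGR libraries, without overlap. At week 8 it was between 10.8 and 25.8, with overlap between the groups.

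**Figure D1:**
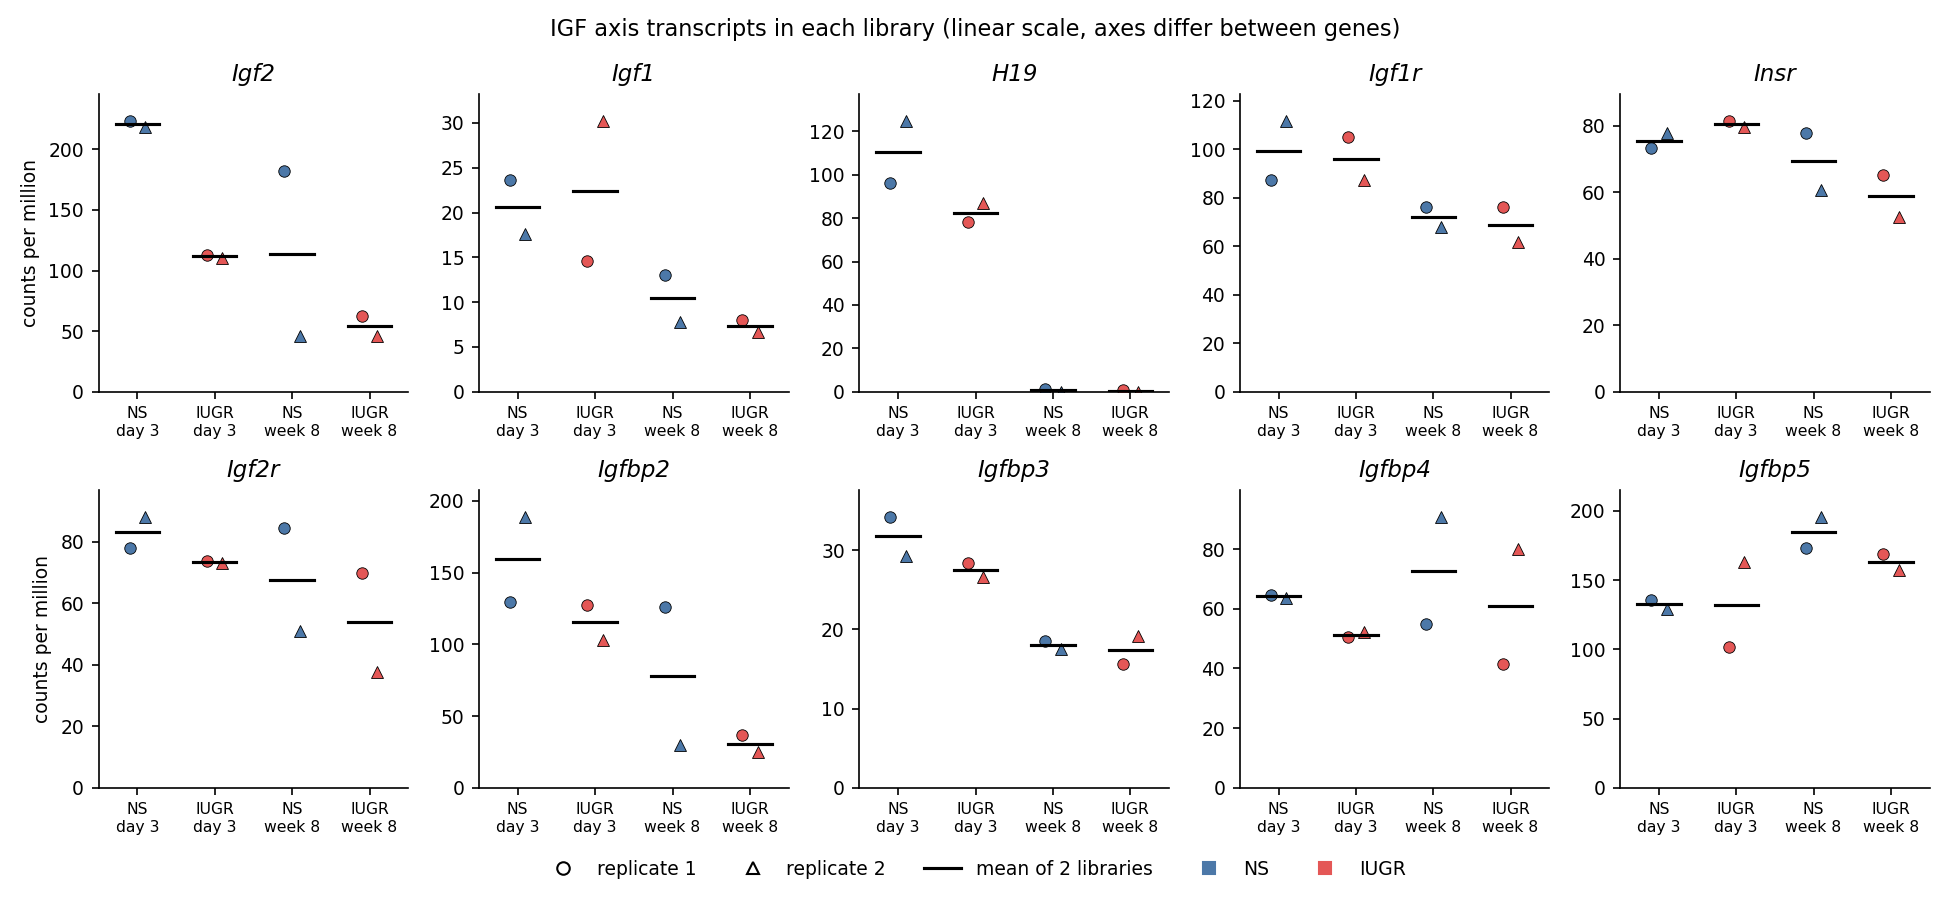
CPM of the 10 genes in each of the 8 libraries (circles replicate 1, triangles replicate 2, bars the mean of 2), in 4 groups on the horizontal axis. Igf2 at postnatal day 3 sits at 218 to 224 CPM in NS and 111 to 113 CPM in IUGR, and at week 8 only replicate 1 of NS, at 182 CPM, is near the younger NS libraries; H19 is near 0 in all week 8 libraries.

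The 3 receptors differed less between groups in the mean than Igf2 did at either age. Igf1r, the tyrosine kinase receptor for both ligands (chromosome 7, 67952827 to 68233668, on the plus strand), gave 87.1 and 112 CPM in the NS libraries and 105 and 87.4 CPM in the IUGR libraries at postnatal day 3. At week 8 Igf1r read 76.3 and 68.0 CPM in the NS libraries and 76.0 and 61.6 CPM in the IUGR libraries. The groups overlapped at both ages, and the log2 difference between IUGR and NS was -0.05 ± 0.23 at postnatal day 3 and 0.01 ± 0.23 at week 8. Both week 8 libraries of each group lay below both postnatal day 3 libraries, by 27.5% in the mean in NS and 28.4% in IUGR.

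Insr, the insulin receptor (chromosome 8, minus strand), was the only gene of the set with both IUGR libraries above both NS libraries at postnatal day 3. It read 73.3 and 77.6 CPM in the NS libraries and 81.5 and 79.6 CPM in the IUGR libraries there, a difference of 6.69% in the mean and 0.09 ± 0.21 on the log2 scale. At week 8 Insr read 77.9 and 60.5 CPM in the NS libraries and 65.2 and 52.7 CPM in the IUGR libraries, with overlap. The Igf1r to Insr ratio, in CPM per kilobase of gene length, stayed between 0.765 and 1.12 across the 8 libraries.

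Igf2r, the scavenging receptor for IGF2 and for lysosomal enzymes tagged with mannose phosphate (chromosome 17, minus strand), is itself imprinted in mice. Igf2r read 77.995 and 88.3 CPM in the NS libraries and 73.7 and 73.3 CPM in the IUGR libraries at postnatal day 3, without overlap. Its log2 difference there was -0.18 ± 0.35. At week 8 Igf2r read 84.4 and 51.0 CPM in the NS libraries and 69.9 and 37.8 CPM in the IUGR libraries, and in each group replicate 1 was the higher library. The Igf2 to Igf2r ratio, in CPM per kilobase of gene length, was 6.04 and 5.21 in the NS libraries at postnatal day 3. In the IUGR libraries of that age it was 3.23 and 3.18. At week 8 this ratio was 4.55 and 1.89 in the NS libraries and 1.88 and 2.57 in the IUGR libraries.

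IGFBP2 binds both IGFs and is made by choroid plexus, leptomeninges and astrocytes. Igfbp2 read 129 and 189 CPM in the NS libraries and 128 and 103 CPM in the IUGR libraries at postnatal day 3. The groups did not overlap, but replicate 1 of the 2 groups differed by only -0.02 on the log2 scale of CPM + 1 against -0.87 for replicate 2. At week 8 Igfbp2 read 126 and 29.6 CPM in the NS libraries and 36.5 and 25.0 CPM in the IUGR libraries, replicate 1 of NS being far above the rest as it was for Igf2. The log2 difference between IUGR and NS at week 8 was -1.25 ± 0.62, and 0.11 without that library.

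Igfbp5, which binds bone and extracellular matrix and lies tail to tail with Igfbp2 on chromosome 1 (5.46 kb apart), had a higher mean at week 8 than at postnatal day 3. It read 135 and 129 CPM in the NS libraries and 101 and 163 CPM in the IUGR libraries at postnatal day 3. At week 8 Igfbp5 read 174 and 196 CPM in the NS libraries and 169 and 157 CPM in the IUGR libraries. Igfbp5 was thus the only gene of the set with both IUGR libraries below both NS libraries at week 8, by 11.8% in the mean (-0.11 ± 0.26 on the log2 scale). The mean was 39.5% higher at week 8 than at postnatal day 3 in NS and 23.2% higher in IUGR, with log2 changes of 0.51 ± 0.26 and 0.41 ± 0.26 that did not pass the test.

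Igfbp4, a binding protein that mostly restrains IGF action and is cut by PAPPA, was tight between replicates at postnatal day 3 and not at week 8. It read 64.7 and 63.5 CPM in the NS libraries and 50.5 and 52.1 CPM in the IUGR libraries at postnatal day 3, 20.0% lower in the mean and without overlap. At week 8 Igfbp4 read 54.7 and 90.9 CPM in the NS libraries and 41.5 and 80.1 CPM in the IUGR libraries, replicate 2 being the higher library in each group. The log2 change of Igfbp4 with age was 0.22 in NS and 0.35 in IUGR, and -0.22 and -0.20 without replicate 2 of that group at week 8. Igfbp3, the main carrier of IGFs in blood, read 34.3 and 29.2 CPM in the NS libraries and 28.4 and 26.6 CPM in the IUGR libraries at postnatal day 3. At week 8 Igfbp3 read 18.5 and 17.5 CPM in the NS libraries and 15.7 and 19.2 CPM in the IUGR libraries, below all postnatal day 3 libraries of the same group. Its log2 change with age was -0.79 ± 0.22 in NS and -0.55 ± 0.22 in IUGR.

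Per kilobase of the deposited gene length, the order of the levels can be compared between genes, though it changed with another length, as given at the end. In NS at postnatal day 3 Igfbp2 led at 120 ± 31.8 CPM per kb (SD, n = 2), followed by Igf2 at 52.1 ± 0.910 and H19 at 48.3 ± 8.91, whose libraries overlapped. Igfbp4, Igfbp5 and Igfbp3 came next at 31.0, 22.6 and 12.998 CPM per kb, each apart from its neighbour. The receptors followed at 9.31 for Igf2r, 8.30 for Igf1r and 8.07 for Insr, where Igf1r overlapped with each of the other two and Igf2r lay above Insr, and Igf1 was last at 2.64 CPM per kb. In IUGR at postnatal day 3 H19 (36.1) stood above Igf2 (26.4 CPM per kb) without overlap. At week 8 in NS, Igfbp2, Igfbp4, Igfbp5 and Igf2 each overlapped with the next in this order, and Igf2 lay above Igf2r without overlap. In IUGR at week 8 Igfbp4 (29.4) and Igfbp5 (27.8 CPM per kb) were the highest on average and Igfbp2 followed at 23.2. H19 was last in both week 8 groups. Of the summed level of the 4 binding proteins per kb, Igfbp2 made up 54.8 to 68.7% at postnatal day 3. At week 8 Igfbp2 made up 59.8% in replicate 1 of NS and 20.4 to 33.2% in the other 3 libraries.

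**Figure D2:**
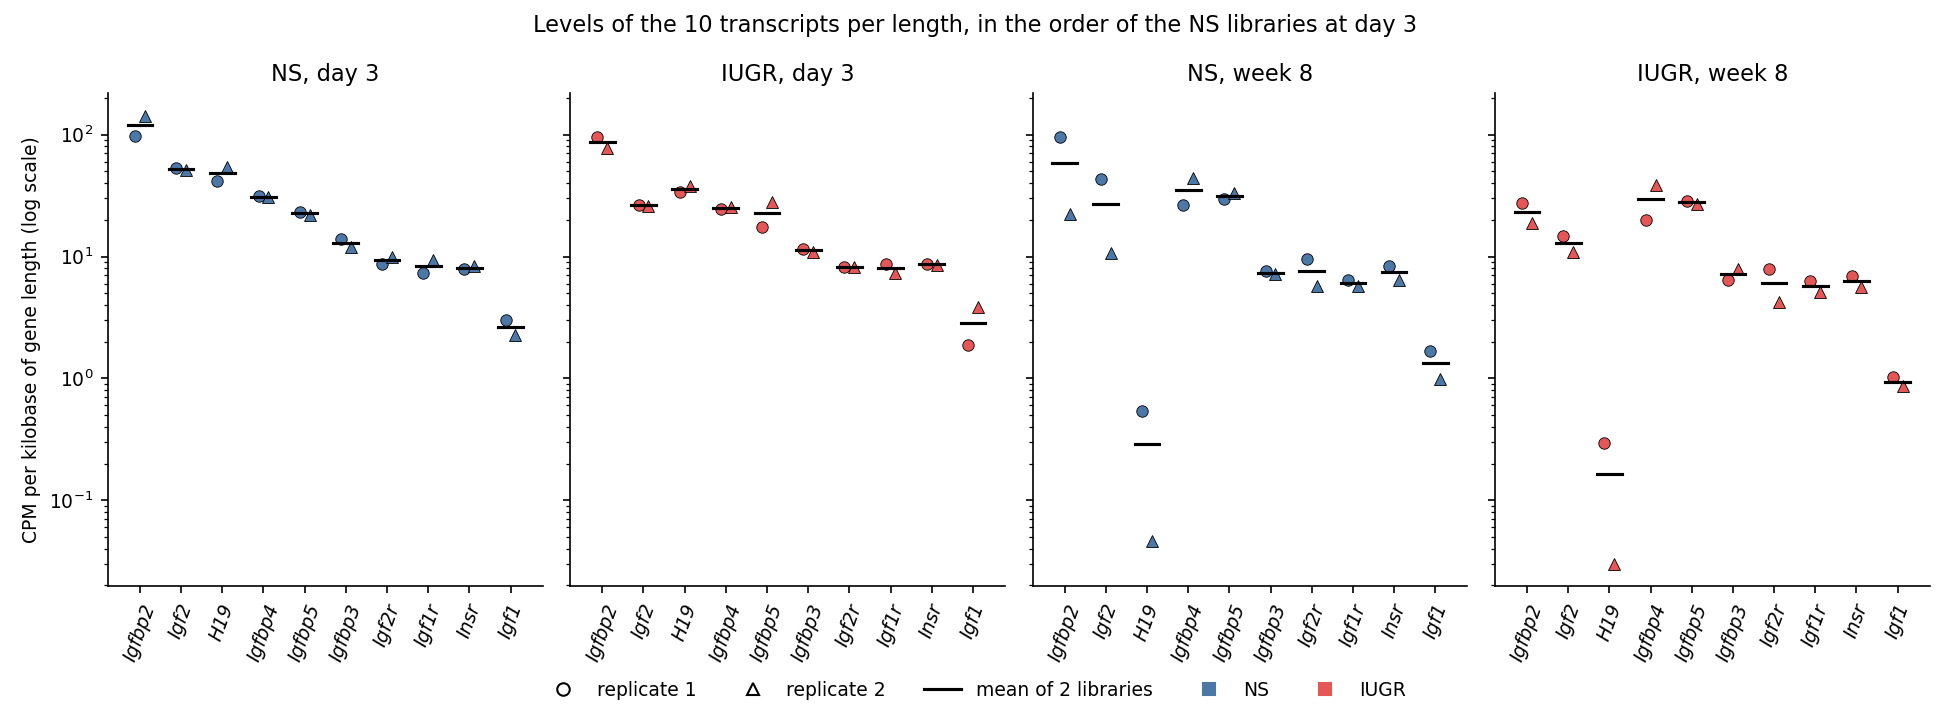
CPM per kilobase of gene length on a log scale for the 10 genes in the 4 groups (circles replicate 1, triangles replicate 2, bars the mean), ordered by their level in NS at postnatal day 3. Igfbp2 leads at 120 CPM per kb in the first group, and H19 drops from 48.3 CPM per kb there to the bottom of both week 8 groups.

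Across the set, 8 of 10 genes were below 0 in the fitted difference between IUGR and NS at each age, with a median log2 difference of -0.19 at postnatal day 3 and -0.22 at week 8, beside medians of 0.01 and 0.02 over all 15999 genes tested. None of the 10 passed the adjusted p at either age or in the difference between the ages, where 0% of all genes passed (edgeR), and an unadjusted p under 0.05 was reached by none of the 10 and by 96, 160 and 82 of all genes (0.6, 1 and 0.513%). At postnatal day 3 both IUGR libraries lay below both NS libraries for 6 genes (Igf2, H19, Igf2r, Igfbp2, Igfbp3 and Igfbp4), beside 16.6% of all genes, and above for Insr, beside 19.7%. At week 8 both IUGR libraries lay below both NS libraries for Igfbp5 alone, beside 9.01% of all genes. Under at least 1 alternative (a tool, a scaling, a filter or libraries left out) the fitted difference turned sign for 3 of the 10 genes at postnatal day 3 (Igf1, Igf1r and Igfbp5) and for 9 at week 8, all but Igf1. The IUGR effects at the 2 ages share no library. For Igf2 the difference between them was -0.003 ± 0.78 on the log2 scale, a standard error too wide to show that they were alike.

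**Figure D3:**
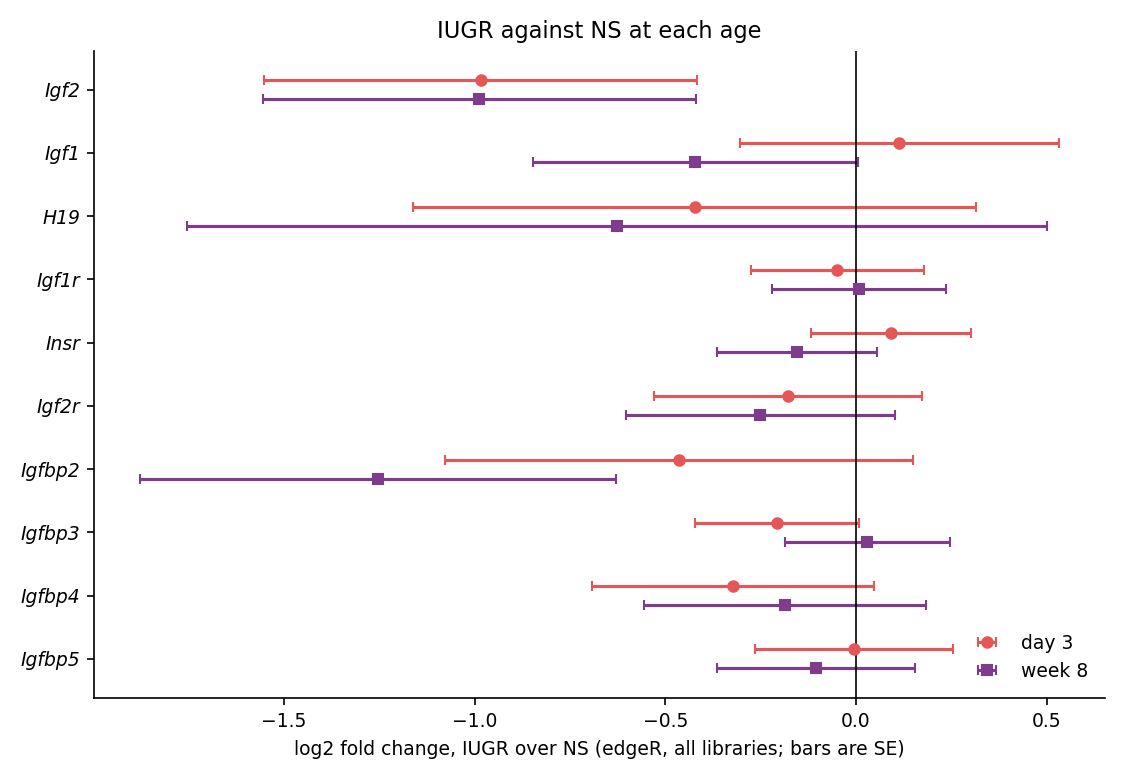
Log2 fold change of IUGR over NS at postnatal day 3 (circles) and week 8 (squares) for the 10 genes, with standard errors from edgeR's fit of all 8 libraries. Igf2 sits at -0.98 and -0.99, Igfbp2 at -0.46 and -1.25, and most other bars cross 0.

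Between ages, 6 genes in NS (Igf2, H19, Igf1, Igf1r, Igfbp2 and Igfbp3) and 8 in IUGR (the same 6 with Igf2r and Insr) had both week 8 libraries below both postnatal day 3 libraries. Of all genes, 32.6% in NS and 37.9% in IUGR lay lower at week 8 in this way. Igfbp5 lay above in NS, as 29.2% of all genes did. The median log2 change of the 10 genes was -0.61 in NS and -0.46 in IUGR, beside 0.04 and 0.02 over all genes. The change turned sign under at least 1 alternative for Igf2r, Insr and Igfbp4 in NS and for Igf2r and Igfbp4 in IUGR.

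The remaining IGF pathway was represented by 63 genes, of which 56 passed the filter. Igfbp1, Igfals, Lin28a, Hmga2, Ascl2, Syt8 and Nctc1 did not, with 4 to 30 counts each over all libraries. Between IUGR and NS none of the 56 passed at postnatal day 3, at week 8 or in the difference between the ages, none had an unadjusted p under 0.05 in edgeR's fit, and none passed with DESeq2, which called 0, 0.00625 and 0% of all genes. Their median log2 difference was 0.01 at postnatal day 3 and 0.02 at week 8. The smallest p at postnatal day 3 belonged to Shc1, an adaptor of receptor tyrosine kinases, at -0.74 ± 0.32 (18.8 and 17.98 CPM in the NS libraries and 10.3 and 11.8 CPM in the IUGR libraries). Next came Foxo4, a FOXO factor, at -0.50 ± 0.25, Igfbp6, an IGF2-preferring binding protein, at -1.17 ± 0.72, and Pik3r3, a regulatory subunit of PI3K, at 0.35 ± 0.22. All 4 had an adjusted p of 1.

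By list, the 4 FOXO factors were below 0 at both ages, and 6 of 8 receptor adaptors at each age, not the same 6, beside 7678 and 7538 of all 15999 genes. Of the PI3K, AKT and mTOR relay, 15 and 16 of 22 genes were above 0, beside 8321 and 8454 of all genes, with medians of 0.05 at postnatal day 3 and 0.12 at week 8. Among the 4 genes with the smallest p at week 8 were Igf2bp2 (-1.84 ± 0.94), Igf2os and Ins2 (-2.84 ± 1.69), all 3 at fewer than 2 CPM in every week 8 library. The difference between the ages was largest against its error for Igf2bp2 (-1.69 ± 1.08), Igfbp6 (1.45 ± 0.99), Foxo4 (0.44 ± 0.34) and Tnnt3 (1.28 ± 1.263).

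With age, 5 of the 56 genes passed in NS, 1 higher and 4 lower, and 8 in IUGR, 4 higher and 4 lower, or 8.93 and 14.3% of them beside 14.1 and 16.8% of all genes (7.7 and 9.34% higher, 6.43 and 7.48% lower). The 5 genes called in NS were all called in IUGR. Igf2bp1 and Igf2bp2, RNA-binding proteins of fetal tissue that bind Igf2 and H19 transcripts, fell in both groups. Igf2bp2 read between 5.64 and 8.68 CPM at postnatal day 3 and between 0 and 0.316 CPM at week 8 (log2 change -4.62 ± 0.68 in NS and -6.32 ± 0.80 in IUGR, edgeR adjusted p 0.011 and 0.0068). In summed counts it was 26.0 times higher at postnatal day 3 in NS (95% exact counting interval 13.4 to 57.5). In IUGR, with 2 counts left at week 8, the ratio was 94.8 (26.0 to 788). Igf2bp1 had 3 counts at week 8 in NS and 2 in IUGR, with ratios of 49.0 (16.4 to 240.1) and 63.6 (17.3 to 530.0). Both genes passed the filter on low counts through their postnatal day 3 libraries, as H19 did, so only a fall could be called. Nothing is read from their calls, which are among the 5 and the 8.

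Igfbpl1, an IGF binding protein-like gene of developing neurons, fell from between 45.3 and 71.0 CPM at postnatal day 3 to between 1.15 and 5.63 CPM at week 8 (-3.65 ± 0.70 in NS, -4.32 ± 0.73 in IUGR). Zfp57, a zinc finger protein that keeps methylation at imprinted control regions, fell from between 57.9 and 65.1 CPM to between 4.45 and 16.9 CPM (-2.41 ± 0.62 and -2.91 ± 0.64). Htra1, a secreted serine protease that can cut IGF binding proteins, rose from between 18.1 and 30.1 CPM to between 111 and 335 CPM (3.09 ± 0.64 and 3.68 ± 0.66). At week 8 Htra1 split by replicate number, 126 and 111 CPM in replicate 1 against 309 and 335 CPM in replicate 2. A further 3 genes passed in IUGR and rose there: Foxo4 (1.36 ± 0.25), Foxo3 (0.85 ± 0.23) and Pik3cb, a catalytic subunit of PI3K (0.78 ± 0.20). In NS they changed by 0.92 ± 0.24, 0.64 ± 0.23 and 0.61 ± 0.20 with adjusted p between 0.053 and 0.109 (edgeR), and the difference between the groups did not pass for any of them.

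These calls depend on the tool and on which libraries set the spread. With DESeq2 13 genes passed in NS and 14 in IUGR, beside 25.7 and 28.6% of all genes. Without both libraries numbered 2 of postnatal day 3, none of the 56 genes passed in either age comparison. Leaving out either postnatal day 3 library of NS ended all calls in NS, and leaving out either of IUGR all calls in IUGR. Without the week 8 libraries numbered 2, or without those numbered 1, each week 8 group kept a single library. More of the 56 genes passed in both groups there than in the fit of all libraries. The share of all genes called in fits with libraries left out was not computed, so nothing about the pathway is read from them. The direction of the 8 genes was the same under every alternative run, though the few counts of Igf2bp1 and Igf2bp2 at week 8 left no other direction for them.

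**Figure D4:**
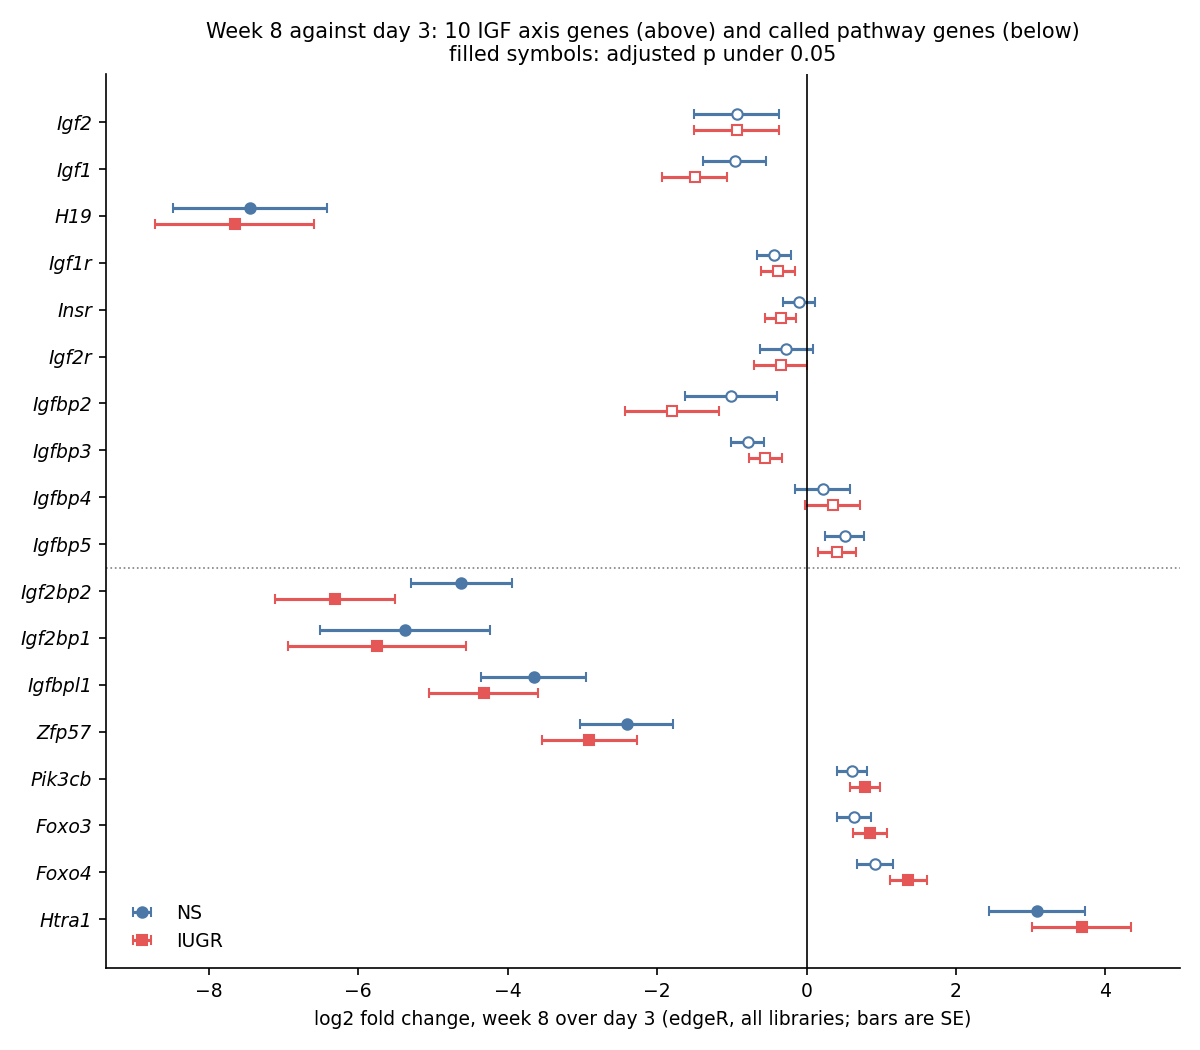
Log2 fold change of week 8 over postnatal day 3 in NS (circles) and IUGR (squares), with standard errors from edgeR, for the 10 IGF axis genes above the dotted line and the 8 called pathway genes below it; filled symbols passed the test. H19 lies at -7.45 and -7.65, Igf2bp2 at -4.62 and -6.32, and Htra1 at 3.09 and 3.68.

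The genes whose pattern over the 8 libraries was most like that of Igf2 were found by the distance between log2(CPM + 1) values centred on each gene's mean, among 11379 genes with a mean of at least 5 CPM at postnatal day 3. Among the 10 nearest, at distances from 0.50 to 0.86, were Dab2, Col4a5, Col12a1, Colec12, Tgfbi, Adam12, Flnc, Col4a6 and Tbx18. Dab2, an endocytic adaptor, read 23.9 and 23.5 CPM in the NS libraries and 15.4 and 13.1 CPM in the IUGR libraries at postnatal day 3. At week 8 Dab2 read 21.5 and 6.58 CPM in the NS libraries and 7.98 and 5.14 CPM in the IUGR libraries, again high in replicate 1 of NS. Colec12, a scavenger receptor, read 40.8 and 40.7 CPM in the NS libraries and 19.3 and 20.7 CPM in the IUGR libraries at postnatal day 3. Nearest to H19 were Dcx, Dpysl3, St8sia2, Hist1h3b, Hist1h3c, Nrep, Cd24a, Trim67, Fabp7 and Hist1h1b, at larger distances of 1.42 to 2.18. Dcx, a microtubule protein of young neurons, read between 923 and 1243 CPM at postnatal day 3 and between 20.2 and 32.7 CPM at week 8. The same 10 genes were found for each after TMM scaling, and the points share the libraries and their depth.

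Markers of some other cell types were lower in IUGR at postnatal day 3, as Igf2 was, and those of others were not. All 20 markers of leptomeninges and fibroblasts had a lower mean in IUGR at postnatal day 3, 19 of them without overlap, beside 16.6% of all genes. Igf2 divided by the summed level of the list, taken without Ptgds, which astrocytes and oligodendrocytes also express, was 0.313 and 0.321 in the NS libraries and 0.292 and 0.268 in the IUGR libraries. The defining markers Dcn and Lum were present in every library. At week 8 all 20 had a lower mean in IUGR and 3 did not overlap, beside 9.01% of all genes. The sum was 2638 and 636 CPM in the NS libraries and 1290 and 746 CPM in the IUGR libraries, with replicate 1 of NS the highest as for Igf2 and Igfbp2.

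Of 12 endothelial markers 11 had a lower mean in IUGR at each age, 9 of them without overlap, beside 16.6 and 9.01% of all genes. They summed to 148 and 140 CPM in the NS libraries and 103 and 98.0 CPM in the IUGR libraries at postnatal day 3, and to 205 and 182 CPM against 117 and 91.7 CPM at week 8. All 10 mural cell markers had a lower mean in IUGR at postnatal day 3, 8 without overlap. They summed to between 145 and 160 CPM in NS and between 107 and 109 CPM in IUGR at postnatal day 3. At week 8, 9 of the 10 mural markers had a lower mean in IUGR, 7 without overlap. Their sums there were 163 to 255 CPM in NS and 102 to 132 CPM in IUGR. All 18 choroid plexus markers had a lower mean in IUGR at postnatal day 3, but 17 overlapped, with sums of 186 and 6757 CPM in the NS libraries and 3519 and 543 CPM in the IUGR libraries. Igf2 differed far less than that within each group. At week 8 they summed to 9017 CPM in replicate 1 of NS and to between 211 and 375 CPM in the other 3 libraries, the library in which Igf2 and Igfbp2 were high. The first 2 red blood cell markers, Hba-a1 and Hba-a2, near-identical copies of each other whose reads may not have been counted, are listed at 0 in every library. The 3 of 7 red blood cell markers with a count, mostly Alas2, summed to between 6.86 and 11.6 CPM at postnatal day 3. At week 8 they summed to 75.2 CPM in replicate 1 of NS, the library high in Igf2 and Igfbp2, 0.948 CPM in replicate 2 of NS, and 11.7 and 0.960 CPM in IUGR. The skeletal muscle markers (9 genes) summed to between 7.40 and 16.0 CPM. At week 8 hippocampal neuron markers (10 genes) summed to 910 and 892 CPM in replicate 1 and 2829 and 2457 CPM in replicate 2. The libraries split as they did for H19 and Htra1. Of the first 2 markers, Prox1 was higher in replicate 2 (66.1 and 66.6 against 46.1 and 34.1 CPM). Zbtb20 was lower there (18.6 and 15.8 against 72.3 and 45.8 CPM). Markers of microglia, interneurons and astrocytes (10 genes each) had summed levels that overlapped between the groups at both ages. At postnatal day 3, 5 microglial, 5 interneuron and 9 astrocyte markers had a lower mean in IUGR. The part of these cell types in the levels of the IGF axis was not tested.

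**Figure D5:**
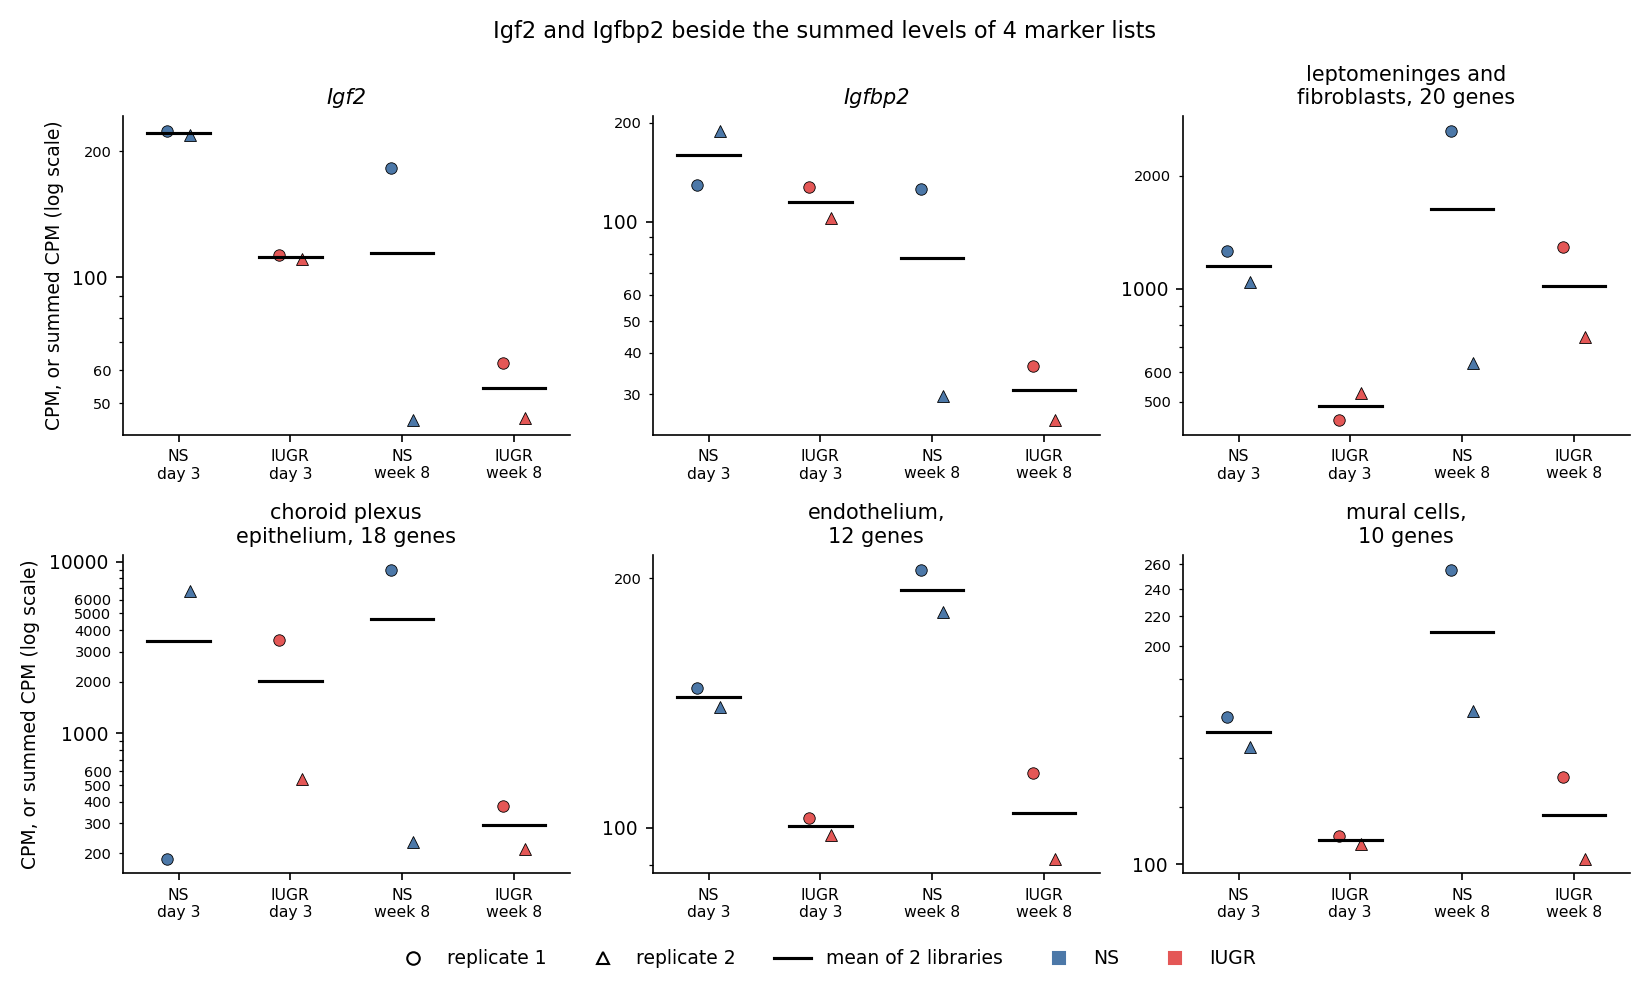
Igf2 and Igfbp2 (CPM) and the summed CPM of 4 marker lists in the 8 libraries, all on log scales (circles replicate 1, triangles replicate 2, bars the mean). Leptomeningeal, endothelial and mural sums are lower in both IUGR libraries at postnatal day 3, as Igf2 is, while replicate 1 of NS at week 8 is high in Igf2, Igfbp2 and the choroid plexus sum (9017 CPM).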

How the data were processed

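Total RNA of 8 hippocampus libraries was taken up in Trizol, freed of ribosomal RNA with Ribo-Zero, primed at random and read in pairs on a HiSeq X-ten, per the labels' protocols. The authors deposited raw counts per gene symbol, 1 table for each age, and the other value beside them is the deposited gene length in bases. Tools named in the submitters' processing notes are featureCounts 1.6.1, DESeq2 1.26.0, HISAT2 2.1.0, cutadapt 1.16 and SAMtools 1.9, with build mm10. The strand setting and annotation release were not given in the sources used here. The deposited normalized tables were not used.

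Totals of 13030277 to 18993050 counts put 3 counts, taken as the limit that a count of 0 allows, at 0.158 to 0.23 CPM. Same-group libraries differed by more than counting noise (chi-square per degree of freedom 16.9 to 337), so none was treated as a copy. Counts were fitted with edgeR 4.0.16 in R 4.3.3 (quasi-likelihood test, 4 group means, all 8 libraries, TMM scaling, filterByExpr), with Benjamini-Hochberg adjustment over 15999 genes and a threshold of 0.05. The standard error is the log2 change divided by the square root of F. The script was tested on simulated data. Alternatives were RLE and upper quartile scaling, other count filters, DESeq2 1.42.0, each age alone, the replicate number as a term, and libraries left out singly or in pairs. CPM uses library totals. Positions are from GENCODE M21 (GRCm38).

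The genes and lists were chosen with earlier results of these data known. Named are the 10 genes, the 6 pathway genes with the smallest adjusted p in each comparison (the 4 with the smallest p where none passed), the called gene of each list with the largest change with age, the 10 genes nearest to Igf2 and to H19, and the first 2 markers of each list where a result turned on them. Some genes that this rule names are not reported here.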

Additional observations from a re-analysis of the deposited data

How the results depend on the processing

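The count of pathway genes called between IUGR and NS, at either age or in the difference between the ages, was 0 under every alternative run. Fits of that age alone exist only for the comparisons of IUGR with NS. Between ages the calls in NS, 5 in all, became 13 with DESeq2 and those in IUGR, 8 in all, became 14. Without both postnatal day 3 libraries numbered 2 both counts were 0. Without both week 8 libraries numbered 2 they were 28 in NS and 25 in IUGR, and without both numbered 1 they were 35 and 35. Leaving out 1 library at a time gave 0 to 10 in NS and 0 to 12 in IUGR. The cause was not tested. Replicate numbers are shared by the groups but are not known to pair animals. The correlation of replicate differences between NS and IUGR was -0.08 at postnatal day 3 and 0.86 at week 8. With a block for the replicate number, the counts were 23 in NS and 20 in IUGR. The share of all genes called was not computed for this fit or for those with libraries left out, so nothing about the pathway is read from them.

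Of 928 alternative values for the 10 genes, 821 moved by less than 1 SD between replicates and 107 by more. Igf2 at postnatal day 3 stayed between -1.03 and -0.96 in 21 alternatives. Some alternatives left out only libraries of the other age and could hardly move a difference within 1 age, here or among the 928. At week 8 its difference ran from -1.66 to 0.31, that of H19 from -2.95 to 1.81 and that of Igfbp2 from -1.94 to 0.11. With age and all libraries kept, Igfbp3 besides H19 passed the threshold under at least 1 alternative in both groups. Igf1 and Igfbp2 passed in IUGR with DESeq2, which called 28.6% of all genes there. Further genes of the 10 passed only with libraries left out, where the share of all genes called was not computed. Igfbp3 had an adjusted p of 0.058 in NS and 0.127 in IUGR (edgeR), 0.043 in NS with upper quartile scaling, 0.012 in NS with DESeq2, and 0.015 and 0.041 with the replicate block. Ins2 at week 8 reversed to 0.41 without both libraries numbered 1 of that age. The difference between the ages for Tnnt3, which ran up to 2.103 with 1 library left out, reversed to -0.90 without week 8 IUGR replicate 1 and to -1.29 without both libraries numbered 1 of week 8. With the union of annotated exons as the length, 4 to 6 of the 10 genes kept their place in the order per kilobase. In NS at postnatal day 3 H19 then lay above Igf2 (44.9 against 38.6 CPM per kb) and Igfbp5 above Igfbp4 (22.0 against 14.5). In IUGR at week 8 Igfbp5 (27.1 CPM per kb) then led. Depth limits H19, Igf2os, Ins2 and Igf2bp2 at week 8.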
